A study of Mus musculus with 15 samples.

Results

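End-stage CT2A tumors were compared with naïve brain across all genes, with 3 mice in each group. These 6 samples were picked by their labels alone from the 15 samples of the series. Of the 46679 genes in the deposited tables, 17481 passed a filter on low counts and were tested. The other 9 samples, from GL261, 005 and Mut3 tumors (3 mice of each), entered the same fit. All tumors were grown in the brains of C57BL/6 mice. GL261 is another carcinogen-induced line, 005 was made by transfer of activated HRas and Akt, and Mut3 is mutant for p53 and was implanted at a higher cell number. These tumors also served as the reference for the question of where CT2A differed from the other tumor lines. CT2A is a glioma line that was induced in C57BL/6 mice with methylcholanthrene, and it is described as wild type for p53. The cells carried a retrovirus with GFP and firefly luciferase and were sorted for GFP. In each mouse, 100000 cells were placed in the right hemisphere at 6 to 8 weeks of age, and tumor tissue was dissected at the endpoint after perfusion with PBS. Naïve brain came from C57BL/6 mice without a tumor, whose age and dissected brain region are not given in the sources used here. No brain with a vehicle injection was compared, so that a response to the injection and one to the tumor cannot be told apart. All CT2A tumors grew from 1 line, so the spread between CT2A samples is that between mice and not between tumors of separate origin.

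A diffuse or expanding glioma replaces and displaces neurons, oligodendrocytes and astrocytes, so that RNA from the tumor holds less of the message that keeps synapses, myelin and glutamate clearance running. In exchange, it holds message of dividing tumor cells, of the matrix and vessels that they build, and of the resident microglia and recruited leukocytes that gather in the mass. A mesenchymal state of glioma is marked by vimentin, CD44, S100 proteins and annexins, and a proneural state by factors of the oligodendrocyte lineage such as Olig2 and Sox10.

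Total counts were 3105119 to 5161132 in naïve brain and 7246421 to 8825088 in CT2A. Levels are given as CPM, which relate the count of a gene to the TMM-normalized total of its library. A count of 3, taken as the floor, corresponded to 0.366 to 0.811 CPM, a limit set by counting alone. Mitochondrial genes held 14.97% to 24.0% of the counts in naïve brain and 3.48% to 7.59% in CT2A. Among the other tumors, 005 replicate 3 held 17.8%, against 6.42% and 4.60% in 005 replicates 1 and 2. It lay nearer to naïve brain (distances of 141 to 150 in log2 CPM) than to 005 replicates 1 and 2 (190 and 216). This brain-like sample is part of the mean and the ranges of the other tumors given below. Along the first principal component of the 6 samples (72.6% of the variance), naïve brain lay between -134 and -111, CT2A replicates 2 and 3 at 146 and 142, and CT2A replicate 1 at 75.0. CT2A replicate 1 was the CT2A sample nearest to naïve brain in 2662 of the 3539 genes that fell (75.2%) and in 2280 of the 3319 genes that rose (68.7%). The direction of small changes depended on how libraries were scaled. With libraries scaled as in the deposited TPM values, which also divide by gene length, log2 fold changes of CT2A over naïve brain are lower by about 0.98 and differences from the other tumors by about 0.24. In that fit 17.2% of the called genes are higher in CT2A in place of 48.4%. Group medians between 0 and 0.98 below turn negative under that scaling, which concerns receptor tyrosine kinases, p53 targets, serine synthesis, endothelium, tumor vessels, pericytes, dendritic cells and cytokines. The share of higher calls was 42.1% with library sizes alone, 19.0% with limma on log2(TPM + 1), 59.9% without CT2A replicate 2 and 59.0% without naïve replicate 2.

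A gene was called when edgeR's adjusted p was under 0.05 and the absolute log2 fold change at least 1. By this rule 3319 genes (19.0% of those tested) rose in CT2A and 3539 (20.2%) fell, and these shares are the background against which the counts of gene groups below are to be read. Without CT2A replicate 1, which left 18375 genes to test, 3254 genes (17.7%) rose and 3490 (19.0%) fell. Of the genes that rose, 2626 were protein coding, 376 pseudogenes and 166 long non-coding or antisense RNAs, against 3290, 27 and 114 of those that fell. In 3257 of the genes that rose and 3431 of those that fell, the 3 CT2A samples did not overlap with the 3 naïve samples. Such a lack of overlap was common. Over all 17481 tested genes, called or not, CT2A lay above naïve brain without overlap in 4850 and below it in 4987. Among the counts of 60 gene groups given below, those with at least 5 called genes stayed within 1.5 times of their value when CT2A replicate 1 was left out, except the count of myelin genes.

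Marker genes of the cell types that the tissue could hold were examined first. The summed level of 5 neuronal markers (Rbfox3, Snap25, Syt1, Stmn2, Nefl) was 4825, 3526 and 6001 CPM in naïve brain and 952, 193 and 211 CPM in CT2A. CT2A replicate 1 thus held more of these markers than the other CT2A samples. Choroid plexus and ependymal markers, led by Ttr, ranged from 763 to 3349 CPM in naïve brain and from 629.7 to 3359 CPM in CT2A, and the groups overlapped. Markers of muscle, skin and meninges, led by Ptgds, summed to 1562 to 6202 CPM in naïve brain and to 192 to 771 CPM in CT2A, and pituitary hormone genes, a set chosen after its values were seen, to 177 to 1886 CPM and to 13.04 to 27.4 CPM. The part of these tissues in the results was not tested. Erythrocyte genes ranged from 478 to 1665 CPM and from 467 to 2429 CPM. Of the leukocyte markers, Cd3e was at or near 0 in all 6 samples and was not tested, whereas Ptprc was measured in every sample. In bulk tissue, fewer cells of a type and less RNA per cell cannot be told apart, and this holds for each result below.

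**Figure D1:**
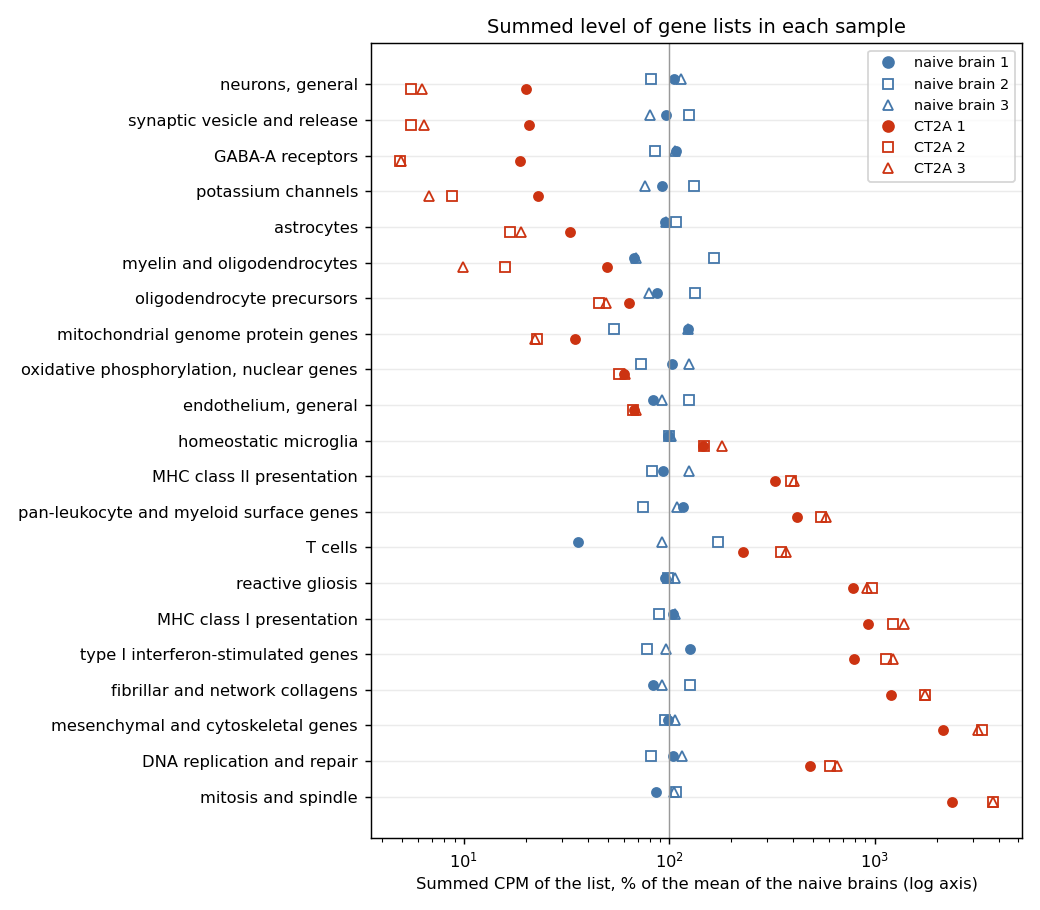
Summed level of the genes of 21 groups in each sample, as a percentage of the mean of the 3 naïve samples (x axis, log scale), with naïve brain in blue and CT2A in red and with circles, squares and triangles for replicates 1, 2 and 3. Neuronal groups lie far to the left in CT2A, with replicate 1 the nearest to naïve brain, and mitosis, mesenchymal and collagen genes lie far to the right in all 3 CT2A samples.

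Neuronal genes fell in most of their functional classes. Of the 20 general neuronal genes, 19 fell, with a median log2 fold change of -3.24 against -0.04 over all tested genes, and their summed level was 20.04%, 5.53% and 6.28% of the naïve mean in CT2A 1, 2 and 3. Snap25, a SNARE protein of vesicle fusion (chr2:136713453-136782428, GRCm38), was at 2369, 1810.0 and 3349.5 CPM in naïve brain and at 466, 90.4 and 106 CPM in CT2A (log2 fold change -3.51 ± 0.95 SE, edgeR adjusted p = 0.0102). Syt1, the calcium sensor of fast release, was at 1389, 944 and 1565 CPM and at 244, 37.6 and 37.2 CPM (log2 fold change -3.61 ± 1.09 SE, edgeR adjusted p = 0.0169). Rbfox3, which encodes the nuclear antigen NeuN, was at 75.7, 117 and 108 CPM and at 24.2, 2.95 and 5.30 CPM (log2 fold change -3.20 ± 0.87 SE, edgeR adjusted p = 0.0103). In all of these genes the 3 CT2A samples lay below the 3 naïve samples, and CT2A replicate 1 kept several times more message than replicates 2 and 3. Nrgn, a calmodulin-binding protein of dendritic spines, had the lowest fold change of the list (-4.12 ± 1.02 SE, edgeR adjusted p = 0.00655). Only Nefh, the heavy neurofilament, was not called, at 27.9, 46.6 and 35.2 CPM against 24.2, 3.57 and 2.84 CPM. The count was 19 without CT2A replicate 1, and 11 and 12 without replicates 2 and 3.

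Receptors for the main fast transmitters fell on the excitatory and the inhibitory side. All 12 tested GABA-A receptor subunits fell (median -3.41), from Gabrg1 at -2.80 ± 0.84 SE to Gabrd, the extrasynaptic delta subunit, at -4.52 ± 1.32 SE (edgeR adjusted p = 0.0167 and 0.0148). Of the 14 tested ionotropic glutamate receptor genes, 10 fell (median -3.08). Gria2, the AMPA receptor subunit that sets calcium permeability, was at 1058, 686 and 1018 CPM in naïve brain and at 128, 18.01 and 37.2 CPM in CT2A (log2 fold change -3.91 ± 0.95 SE, edgeR adjusted p = 0.00622). Grin1, the obligatory NMDA receptor subunit, was at 34.1, 27.4 and 26.2 CPM and at 3.79, 2.95 and 1.03 CPM (log2 fold change -3.49 ± 0.78 SE, edgeR adjusted p = 0.00414). The kainate receptor genes Grik2, Grik4 and Grik5 were not called, with log2 fold changes between -1.48 and -0.72. Of 7 metabotropic receptors 5 fell, among them Grm5, which couples to phospholipase C (224, 169 and 169.8 CPM against 27.96, 2.33 and 5.17 CPM, log2 fold change -3.98 ± 1.14 SE, edgeR adjusted p = 0.0135). Grm5 lost its call without CT2A replicate 2 (log2 fold change -3.38), and Gabrd without CT2A replicate 2 (-3.91) or naïve replicate 2 (-3.69). Without CT2A replicate 2 or 3, the GABA-A count was 5 or 6, the ionotropic count 4 in both cases and the metabotropic count 2 or 3.

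On the presynaptic side, 18 of 21 vesicle and release genes fell (median -3.36). Slc17a7, the vesicular glutamate transporter of cortical neurons, was at 114, 196 and 108 CPM in naïve brain and at 24.5, 2.48 and 8.53 CPM in CT2A (log2 fold change -3.55 ± 1.02 SE, edgeR adjusted p = 0.0137). Slc32a1, the vesicular GABA transporter, was at 9.18, 32.9 and 9.46 CPM and at 2.69, 0.466 and 0.388 CPM (log2 fold change -3.82 ± 1.03 SE, edgeR adjusted p = 0.0103). Neither call held without 1 library: Slc17a7 was at -2.96 without CT2A replicate 2, and Slc32a1 at -2.74 without naïve replicate 2, on the log2 scale. Slc17a6, the transporter of thalamic and brainstem neurons, was not called (55.9, 34.6 and 32.2 CPM against 18.3, 10.9 and 1.55 CPM, edgeR adjusted p = 0.156). Rims1, an organizer of the release site, had the lowest fold change of the list (-4.47 ± 0.99 SE, edgeR adjusted p = 0.00387). On the postsynaptic side, all 17 tested scaffold and adhesion genes fell (median -3.22). Camk2a, the kinase of synaptic plasticity, was at 378, 880.1 and 299.9 CPM and at 61.5, 10.4 and 21.1 CPM (log2 fold change -4.06 ± 1.04 SE, edgeR adjusted p = 0.00793). The neuroligins Nlgn1 and Nlgn2 had log2 fold changes of -1.84 and -1.89. The count of postsynaptic genes was 8 without CT2A replicate 2 and 11 without replicate 3.

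Ion channels of excitable membranes fell too. Sodium and calcium channel genes fell in 14 of 15 cases (median -3.43), and potassium and HCN channel genes in 16 of 20 (median -3.07). Scn4b, a beta subunit that shapes resurgent sodium current, was at 7.14, 77.2 and 24.1 CPM in naïve brain, with a wide spread, and at 1.34, 0.310 and 0.775 CPM in CT2A (log2 fold change -5.42 ± 1.33 SE, edgeR adjusted p = 0.00649). Kcna1, a potassium channel of axons, and Kcnj10, the inward rectifier of astrocytes, were not called (edgeR adjusted p = 0.0518 and 0.0513), although their log2 fold changes were -2.79 and -1.63. Without CT2A replicate 2 or 3 the potassium channel count was 6, and it was 10 without naïve replicate 2.

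Genes that tell neuron classes and brain regions apart gave a less even result. Of 17 interneuron and neuropeptide genes 11 fell (median -2.66), with Sst, somatostatin, at 138, 99.4 and 117 CPM in naïve brain and at 30.5, 4.66 and 7.23 CPM in CT2A (log2 fold change -3.06 ± 0.92 SE, edgeR adjusted p = 0.0168). Vip, vasoactive intestinal peptide, was at 81.4, 43.8 and 84.4 CPM and at 9.89, 2.64 and 2.58 CPM (log2 fold change -3.78 ± 0.99 SE, edgeR adjusted p = 0.0086). Npy was not called, at 143, 114 and 204 CPM against 101, 9.47 and 20.9 CPM, where CT2A replicate 1 came close to the naïve samples. Calb1 (calbindin, log2 fold change -0.92 ± 0.36 SE) and Lhx6, a factor of migrating interneurons (-0.53 ± 0.50 SE), were not called. Of the striatal, cortical and hippocampal genes 12 of 14 fell. Drd1, the dopamine receptor of striatal projection neurons, was at 17.1, 29.9 and 21.1 CPM and at 2.32, 0.310 and 0.388 CPM (log2 fold change -4.44 ± 1.23 SE, edgeR adjusted p = 0.0116). Tbr1, a factor of deep-layer cortical neurons, was at 33.3, 43.3 and 27.9 CPM and at 5.25, 1.397 and 1.29 CPM (log2 fold change -3.70 ± 0.86 SE, edgeR adjusted p = 0.00502). Rorb, a layer 4 factor, was not called (112, 82.0 and 94.4 CPM against 66.3, 51.5 and 64.2 CPM). Monoamine and cholinergic genes were low in naïve brain, and 1 of 7, the choline transporter Slc5a7, fell. Leaving out CT2A replicate 2 or 3 left 3 or 4 interneuron genes and 6 or 7 regional genes called, and leaving out any naïve replicate left 6 interneuron genes.

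Most activity-regulated early genes fell. Of 14, 9 fell and 1 rose. Arc, a regulator of AMPA receptor trafficking, was at 17.95, 43.1 and 12.7 CPM in naïve brain and at 1.83, 0.776 and 0.775 CPM in CT2A (log2 fold change -4.41 ± 0.95 SE, edgeR adjusted p = 0.00341). Egr1 was at 109, 124 and 83.0 CPM and at 16.7, 18.9 and 21.6 CPM (log2 fold change -2.46 ± 0.58 SE, edgeR adjusted p = 0.00534). Fos, which many dividing cells also express, also fell (-1.34 ± 0.49 SE, edgeR adjusted p = 0.0391), and Junb, its partner in AP-1, was at 12.9, 21.2 and 8.92 CPM and at 12.8, 19.4 and 21.8 CPM, with overlapping groups. Ier2 rose from 2.24, 6.48 and 2.16 CPM to 9.53, 12.3 and 13.05 CPM (log2 fold change 1.68 ± 0.43 SE, edgeR adjusted p = 0.00817). Without CT2A replicate 2 or 3 the count of genes that fell was 4, and without naïve replicate 1 or 2 it was 5.

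**Figure D2:**
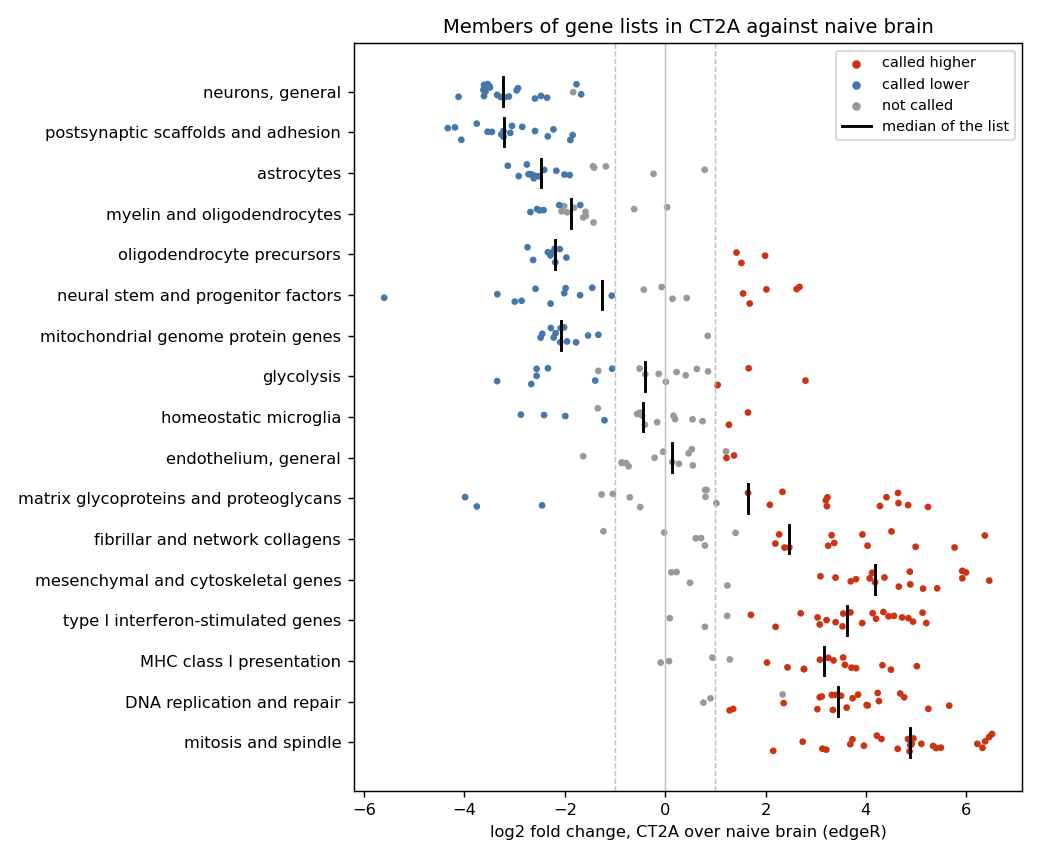
Log2 fold change of CT2A over naïve brain for each tested member of 17 gene groups (x axis, points; called members are coloured, others grey), with a bar at the median of the group and dashed lines at -1 and 1. General neuronal and postsynaptic genes cluster near -3, myelin genes spread from near -3 to 0, and mitosis, mesenchymal and interferon-stimulated genes lie between 2 and 7 with few exceptions.

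Myelin genes were lower in CT2A by their median, and the count that passed the test depended on single libraries. Of 16 genes of mature oligodendrocytes 6 fell (median -1.89), and their summed level was 49.5%, 15.9% and 9.90% of the naïve mean in CT2A 1, 2 and 3 and 67.2%, 164% and 68.9% in naïve brain 1, 2 and 3. Mbp, myelin basic protein, was at 402, 1489 and 343 CPM in naïve brain and at 265, 82.1 and 47.4 CPM in CT2A (log2 fold change -2.50 ± 0.88 SE, edgeR adjusted p = 0.0348). For Mbp, naïve replicate 2 was the highest and CT2A replicate 1 the highest of the tumors, while the groups did not overlap. Aspa, aspartoacylase of oligodendrocytes, was the exception of the list, at 14.3, 30.6 and 27.6 CPM and at 34.1, 19.7 and 20.5 CPM (log2 fold change 0.04 ± 0.61 SE, not called). Without naïve replicate 2, Mbp was not called (log2 fold change -1.29). The count of the list was 10 without CT2A replicate 1, 0 without CT2A replicate 2 or 3 and 2 without naïve replicate 2. It was 12 without 005 replicate 3, which enters the estimate of the spread, and 13 in a fit of only the 2 CT2A samples that held little myelin message and the naïve samples.

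Oligodendrocyte precursor genes moved in both directions. Of 12 genes 9 fell and 3 rose. The lineage factors fell. Olig2 was at 9.996, 20.9 and 10.5 CPM in naïve brain and at 6.11, 2.17 and 2.20 CPM in CT2A (log2 fold change -1.97 ± 0.50 SE, edgeR adjusted p = 0.00721). Sox10 was at 5.30, 15.2 and 4.60 CPM and at 1.71, 1.71 and 1.68 CPM (log2 fold change -2.29 ± 0.64 SE, edgeR adjusted p = 0.0122). Gpr17, a receptor of committed precursors, was at 5.10, 12.2 and 4.60 CPM and at 0.977, 1.09 and 1.16 CPM (log2 fold change -2.74 ± 0.60 SE, edgeR adjusted p = 0.0038). Pdgfra, the growth factor receptor of precursors and of many mesenchymal cells, rose from 16.9, 21.7 and 13.8 CPM to 43.96, 53.1 and 53.3 CPM (log2 fold change 1.52 ± 0.36 SE, edgeR adjusted p = 0.0052). Cspg4, the NG2 proteoglycan that pericytes carry too, rose from 5.30, 12.2 and 5.95 CPM to 13.3, 19.3 and 30.2 CPM (log2 fold change 1.42 ± 0.44 SE, edgeR adjusted p = 0.0186). Nkx2-2 rose from 1.84, 4.23 and 0.541 CPM to 10.4, 8.38 and 7.75 CPM (log2 fold change 1.99 ± 0.50 SE, edgeR adjusted p = 0.00683). CT2A was also set directly against the other tumors, a contrast that uses the same 3 CT2A samples and in which 841 of all tested genes (4.81%) were higher in CT2A and 519 (2.97%) lower. There, 9 of the 12 precursor genes were lower in CT2A and 1 higher (median -2.54, against -0.10 over all tested genes). Olig2 averaged 3.49 CPM in CT2A, 36.2 CPM in GL261, 14.7 CPM in 005 and 216 CPM in Mut3 (log2 difference -3.78 ± 0.48 SE, edgeR adjusted p = 0.00022), and Sox10 averaged 1.70, 53.1, 6.97 and 10.5 CPM (log2 difference -3.20 ± 0.60 SE, edgeR adjusted p = 0.00374). In both genes the 3 CT2A samples lay below all 9 other tumors, in which Olig2 ranged from 9.99 to 316 CPM and Sox10 from 2.68 to 60.5 CPM. Against naïve brain, Sox10 was not called without naïve replicate 2 (log2 fold change -1.33). Of the genes lower than in naïve brain, 4 were called without CT2A replicate 2 and 2 without naïve replicate 2.

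Astrocyte transport genes fell, while genes of the reactive state rose. Of 18 astrocyte genes 13 fell (median -2.47). Slc1a2, the transporter that clears most synaptic glutamate, was at 539.8, 1072 and 452 CPM in naïve brain and at 159.6, 32.1 and 80.9 CPM in CT2A (log2 fold change -2.92 ± 0.83 SE, edgeR adjusted p = 0.0131). Glul, glutamine synthetase, was at 369, 512 and 443 CPM and at 116, 55.7 and 59.2 CPM (log2 fold change -2.52 ± 0.55 SE, edgeR adjusted p = 0.00364). Aldoc, the brain aldolase, was at 1172, 684 and 1155 CPM and at 275, 99.8 and 99.1 CPM (log2 fold change -2.67 ± 0.74 SE, edgeR adjusted p = 0.012). Aqp4, the water channel of astrocyte endfeet, was not called (128, 87.2 and 123 CPM against 82.4, 33.5 and 32.8 CPM), nor were Gja1, connexin 43 (235, 106 and 244 CPM against 129.8, 167 and 202 CPM), and Sox9 (39.6, 58.3 and 33.8 CPM against 59.6, 85.7 and 82.2 CPM). The last 2 are also expressed by cells other than astrocytes. Slc1a2 was not called without naïve replicate 2 (log2 fold change -2.24). The count was 3 without CT2A replicate 2, 5 without replicate 3 and 8 without naïve replicate 2. Of 18 gliosis genes 11 rose and none fell (median 2.01). Gfap, the intermediate filament that defines reactive astrocytes, was low in every sample, at 9.18, 6.48 and 6.49 CPM and at 21.9, 9.31 and 11.2 CPM, and was not called (edgeR adjusted p = 0.203). The genes that rose most, Cd44 (4.88 ± 0.56 SE), Vim (4.66 ± 0.62 SE), Psmb8 (3.55 ± 0.69 SE) and Ggta1 (3.49 ± 0.53 SE), are expressed by tumor or immune cells too. Serpina3n, a protease inhibitor of reactive astrocytes, rose from 24.7, 14.7 and 18.9 CPM to 141, 107 and 66.9 CPM (log2 fold change 2.43 ± 0.62 SE, edgeR adjusted p = 0.00746).

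Genes of oxidative phosphorylation fell where they are encoded in the mitochondrial genome, and few of those of the nucleus were called. Of the 13 tested protein genes of the mitochondrial genome 12 fell (median -2.08). mt-Co1, a core subunit of complex IV, was at 3349, 1578 and 3246 CPM in naïve brain and at 879.8, 489 and 382 CPM in CT2A (log2 fold change -2.22 ± 0.58 SE, edgeR adjusted p = 0.00863), and the summed level of the genes was 34.8%, 22.6% and 22.2% of the naïve mean in CT2A 1, 2 and 3. mt-Nd3, of complex I, stood apart: it was at 78.1, 85.9 and 119.8 CPM and at 188, 176 and 147 CPM, higher in CT2A without overlap, and was not called (log2 fold change 0.85 ± 0.56 SE, edgeR adjusted p = 0.236). Of the 22 nuclear genes of oxidative phosphorylation 4 fell (median -0.78), with Cyc1, cytochrome c1 of complex III, lowest (91.2, 138 and 64.4 CPM against 32.2, 28.9 and 25.1 CPM, log2 fold change -1.77 ± 0.33 SE, edgeR adjusted p = 0.00163), followed by Ndufa4, Uqcrfs1 and Cox4i1. Others missed the call by the fold threshold alone, among them Cox6c, Atp5b and Ndufb8 (log2 fold changes -0.99, -0.76 and -0.82, edgeR adjusted p = 0.014, 0.0129 and 0.0199). In each, CT2A lay below naïve brain without overlap. Uqcrc2 and Atp5c1, with log2 fold changes of 0.16 and 0.10, overlapped. The called share of the 22 genes is below the 20.2% of all tested genes that fell. The count moved with the processing, to 19 genes with TPM scaling and to 1 without CT2A replicate 2. None of them rose, and Ndufa1, a subunit of complex I, was not called (-0.65 ± 0.26 SE).

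In glycolysis, the paired forms of lactate dehydrogenase and of enolase moved in opposite directions. Of 19 genes 3 rose and 7 fell (median -0.40), and the share that rose is below the 19.0% of all tested genes. Hexokinase 2, the inducible form, rose from 1.43, 3.49 and 1.89 CPM to 8.67, 15.99 and 22.6 CPM (log2 fold change 2.80 ± 0.66 SE, edgeR adjusted p = 0.00522), whereas Hk1, the brain form, was at 30.8, 37.1 and 111 CPM and at 47.7, 10.1 and 12.9 CPM and was not called. Ldha, the lactate dehydrogenase subunit that favours lactate, rose from 578, 365 and 707 CPM to 1027, 1892 and 2310.0 CPM (log2 fold change 1.66 ± 0.37 SE, edgeR adjusted p = 0.0038), and Ldhb, its counterpart of oxidative tissue, fell from 1097, 758 and 1609.7 CPM to 318, 167 and 200.5 CPM (log2 fold change -2.34 ± 0.50 SE, edgeR adjusted p = 0.0034). Among the enolases, Eno1 rose from 1735, 937 and 1785 CPM to 2157, 3025 and 4024 CPM (log2 fold change 1.05 ± 0.31 SE, edgeR adjusted p = 0.016), and the neuronal Eno2 fell from 535, 526 and 532 CPM to 103, 26.9 and 26.7 CPM (log2 fold change -3.35 ± 0.80 SE, edgeR adjusted p = 0.00561). Pfkm fell (-2.56 ± 0.54 SE) and so did Pfkp (-1.06 ± 0.31 SE), while Pfkl was at 19.8, 16.9 and 17.6 CPM and at 11.4, 19.1 and 19.2 CPM. Slc2a3, the neuronal glucose transporter, fell from 66.7, 61.0 and 60.8 CPM to 19.3, 4.35 and 8.14 CPM (log2 fold change -2.56 ± 0.61 SE, edgeR adjusted p = 0.00557), and Slc2a1, that of the blood-brain barrier, was not called (8.16, 25.4 and 10.3 CPM against 15.6, 17.7 and 24.8 CPM). The groups did not overlap in any of the genes that fell here. With libraries scaled as in the TPM, 1 of the genes that rose, Hk2, was still called, and Ldha was not (log2 fold change 0.70).

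**Figure D3:**
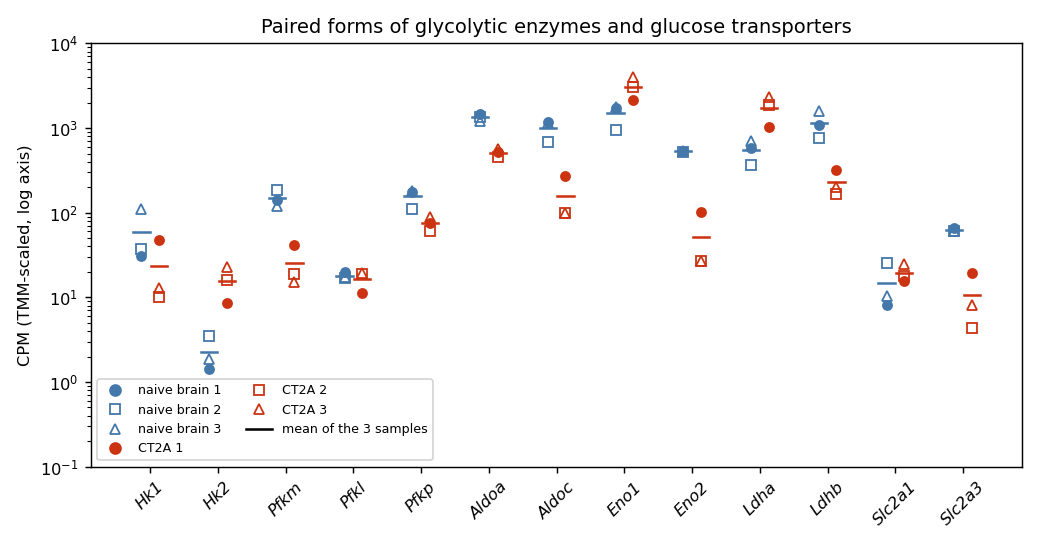
Level of 13 glycolysis genes in each sample (y axis, CPM, log scale; blue naïve brain, red CT2A, horizontal lines at the group means). Hk2, Eno1 and Ldha are higher in CT2A, and Pfkm, Aldoc, Eno2, Ldhb and Slc2a3 are lower.

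The hypoxia list was called in part. Of 18 genes 6 rose and 1 fell (median 1.12). Vegfa, the main growth factor of vessels, rose from 15.1, 14.2 and 10.01 CPM to 24.5, 32.1 and 50.1 CPM (log2 fold change 1.44 ± 0.42 SE, edgeR adjusted p = 0.015). Car9, a carbonic anhydrase of hypoxic tumor cells, rose from 0.408, 0 and 0.541 CPM to 1.95, 4.66 and 6.85 CPM (log2 fold change 3.76 ± 0.91 SE, edgeR adjusted p = 0.00613). Ankrd37 rose from 12.4, 8.47 and 11.1 CPM to 17.8, 58.2 and 82.0 CPM (log2 fold change 2.30 ± 0.54 SE, edgeR adjusted p = 0.00526). In all of these, CT2A replicate 1 was the lowest and replicate 3 the highest of the tumors. Slc16a3, the lactate exporter, stayed near the floor (0.122, 0.155 and 1.16 CPM in CT2A). Without CT2A replicate 3, 3 genes were called higher, and with TPM scaling 1. In serine synthesis, Phgdh, its first enzyme, rose from 16.5, 28.1 and 20.3 CPM to 59.2, 59.9 and 58.3 CPM (log2 fold change 1.45 ± 0.38 SE, edgeR adjusted p = 0.00844). Mthfd2, the mitochondrial folate enzyme of dividing cells, rose from 14.5, 11.5 and 7.57 CPM to 94.9, 173 and 157 CPM (log2 fold change 3.66 ± 0.54 SE, edgeR adjusted p = 0.000449). The stress factors Atf4 (0.33 ± 0.33 SE) and Ddit3 (0.09 ± 0.34 SE) were not called, and 5 of the 16 genes of this list rose, 3 without naïve replicate 1. Cholesterol genes were called lower in 4 of 17 cases, a share close to the 20.2% of all tested genes that fell. Srebf2, their master regulator, fell by most (-2.13 ± 0.51 SE, edgeR adjusted p = 0.00551).

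Genes of cell division rose together. All 24 mitosis and spindle genes rose (median 4.88), and their summed level was 2384%, 3751% and 3748% of the naïve mean in CT2A 1, 2 and 3. Mki67, the proliferation antigen Ki-67 (chr7:135689784-135716361), was at 3.06, 2.24 and 1.89 CPM in naïve brain and at 62.0, 82.3 and 76.0 CPM in CT2A (log2 fold change 4.91 ± 0.72 SE, edgeR adjusted p = 0.000449). Cdk1, the kinase that drives entry into mitosis, was at 5.30, 11.96 and 11.6 CPM and at 195, 325 and 323 CPM (log2 fold change 4.87 ± 0.72 SE, edgeR adjusted p = 0.000475). Prc1, which bundles the central spindle, was at 3.67, 3.24 and 5.95 CPM and at 299.6, 516 and 359 CPM (log2 fold change 6.52 ± 0.83 SE, edgeR adjusted p = 0.000227). Cenpf and Cenpe, proteins of the kinetochore, rose by 6.38 ± 0.83 SE and 6.22 ± 0.80 SE, and Kif20a by the least, 2.15 ± 0.41 SE. Plk1, a kinase of mitosis, had under 3 counts in naïve brain, and its level in CT2A was higher by a factor of 47.9 (95% exact counting interval 13.1 to 399). In each of these genes CT2A replicate 1 was the lowest tumor sample, and it still lay above every naïve sample. Of 24 replication and repair genes 21 rose (median 3.45), from Tk1, thymidine kinase (0.408, 1.25 and 1.89 CPM against 51.7, 56.5 and 67.8 CPM, log2 fold change 5.66 ± 0.71 SE, edgeR adjusted p = 0.000204), to Fen1, the flap endonuclease (10.2, 9.22 and 15.95 CPM against 22.7, 33.7 and 29.7 CPM, log2 fold change 1.28 ± 0.40 SE, edgeR adjusted p = 0.0189). Brca2, Blm and Pola1 were not called, with log2 fold changes of 0.76, 2.34 and 0.90. The counts of both lists were within 1.5 times of these under each alternative but 1, with 24 and 19 genes called under TPM scaling. The exception was the filter of at least 10 counts in every sample, which removes genes near 0 in naïve brain and left 10 and 11 called.

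Promoters of mitosis genes often hold the cell cycle genes homology region (CHR, TTTGAA), to which the DREAM and MYB-MuvB complexes bind. In RefSeq promoters of build GRCm38.p6 (250 bases before to 50 after the start, both strands searched), TTTGAA was found in 13 of 19 mitosis genes with a promoter in the table (68.4%), in 3 of 19 replication genes (15.8%) and in 20.2% of all 27025 genes. The box CCAAT was found in 15 (78.9%) and 13 (68.4%) of them and in 41.1% of all genes. A match describes the letters of the window and no binding was measured. These windows, written 5′ to 3′ on the strand of the gene with TTTGAA, or TTCAAA where it lies on the other strand, in capitals, are shown because all of their genes rose. They lie at chr7:135716447-135716520 (Mki67), chr4:118437331-118437386 (Cdc20), chr11:99024182-99024237 (Top2a) and chr4:117178845-117178900 (Kif2c), all on the minus strand.
Mki67: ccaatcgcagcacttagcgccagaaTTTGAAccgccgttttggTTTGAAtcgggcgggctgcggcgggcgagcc
Cdc20: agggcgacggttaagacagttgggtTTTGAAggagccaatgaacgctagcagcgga
Top2a: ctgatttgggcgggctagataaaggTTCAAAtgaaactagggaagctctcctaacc
Kif2c: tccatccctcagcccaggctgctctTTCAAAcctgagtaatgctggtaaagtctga
Cdc20, the activator of the anaphase-promoting complex, was at 1.43, 1.49 and 1.35 CPM in naïve brain and at 22.3, 26.5 and 18.5 CPM in CT2A (log2 fold change 3.96 ± 0.66 SE, edgeR adjusted p = 0.000921). Top2a, the topoisomerase of dividing cells, was at 9.79, 8.97 and 13.5 CPM and at 237, 384 and 375 CPM (log2 fold change 4.95 ± 0.65 SE, edgeR adjusted p = 0.000263). Kif2c, a kinesin that takes down microtubules, was at 0.408, 2.99 and 1.08 CPM and at 14.9, 22.7 and 21.6 CPM (log2 fold change 3.73 ± 0.81 SE, edgeR adjusted p = 0.00348).

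Genes of cell cycle entry and tumor suppression were examined with the described p53 status of the line in view. Trp53 rose from 8.98, 13.9 and 9.19 CPM in naïve brain to 53.4, 65.0 and 67.3 CPM in CT2A (log2 fold change 2.53 ± 0.35 SE, edgeR adjusted p = 0.000325). Cdkn2a, the locus of p16 and p19 (chr4:89274471-89294653), had no count in naïve brain and was at 6.47, 8.69 and 12.7 CPM in CT2A, at least 38.9-fold higher. Cdk4 and Cdk6, the kinases that p16 inhibits, rose from 38.6, 41.1 and 26.0 CPM to 253, 368 and 385 CPM (log2 fold change 3.25 ± 0.55 SE, edgeR adjusted p = 0.000978) and from 2.04, 2.99 and 4.33 CPM to 59.2, 56.05 and 47.7 CPM (log2 fold change 4.13 ± 0.58 SE, edgeR adjusted p = 0.000355), and their cyclin Ccnd1 from 38.1, 30.9 and 41.1 CPM to 281, 385 and 433 CPM (log2 fold change 3.32 ± 0.63 SE, edgeR adjusted p = 0.00188). Ccnd2 and Ccne1 were not called (0.20 ± 0.68 SE and -0.06 ± 0.35 SE). In all, 11 of 20 genes of this list rose and 1, the inhibitor Cdkn1c, fell. Of 19 targets of p53, 3 rose and 5 fell (median 0.29), and they did not move together. Beside the 19.0% and 20.2% of all tested genes that rose and fell, these counts show no trait of the targets of p53. Cdkn1a, its inhibitor of the cell cycle, was at 11.4, 3.24 and 21.9 CPM and at 35.5, 37.7 and 42.9 CPM and Mdm2, its negative regulator, at 24.9, 24.7 and 27.3 CPM and at 27.1, 31.98 and 39.0 CPM, and neither was called (edgeR adjusted p = 0.0722 and 0.358). Of those that rose, Gtse1 and Ckap2 are also genes of the mitotic spindle, and the receptor Eda2r rose from under 3 counts. Those that fell were Perp, Zmat3, Plk2, Sesn1 and Btg2. Of these, Perp was at -2.16 on the log2 scale and not called without naïve replicate 2, and 3 of them were called without CT2A replicate 2 or 3 or naïve replicate 2.

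Machinery for protein synthesis was higher as well. Of 16 nucleolar genes 11 rose (median 1.31), with Npm1, nucleophosmin, at 445, 189 and 430.2 CPM in naïve brain and at 2224, 3245 and 2868 CPM in CT2A (log2 fold change 2.97 ± 0.44 SE, edgeR adjusted p = 0.000453). Ncl, nucleolin, was at 451, 259 and 431 CPM and at 1552, 2104 and 1747 CPM (log2 fold change 2.24 ± 0.45 SE, edgeR adjusted p = 0.0023). Of 26 ribosomal protein genes 22 rose (median 1.79). Rplp0, of the ribosomal stalk, rose from 1056, 704 and 1202 CPM to 10365, 14053 and 13561 CPM (log2 fold change 3.68 ± 0.45 SE, edgeR adjusted p = 0.000185). These genes share reads with processed pseudogenes, so that the split of the counts between them is uncertain. With libraries scaled as in the TPM, 8 ribosomal and 5 nucleolar genes were called higher. Myc, a driver of ribosome production, rose from 4.49, 3.99 and 2.70 CPM to 28.1, 31.1 and 26.7 CPM (log2 fold change 2.93 ± 0.49 SE, edgeR adjusted p = 0.0009), whereas Mycn, its neural relative, was at 3.88, 7.22 and 4.33 CPM and at 0.122, 0 and 0.129 CPM, with 2 counts in all CT2A samples and a level in naïve brain that was higher by a factor of 56.8 (95% exact counting interval 15.1 to 479).

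Mesenchymal genes had the highest median after mitosis among the 60 gene groups. Of 21 genes 17 rose and none fell (median 4.18), and the summed level was 2136%, 3307% and 3195% of the naïve mean in CT2A 1, 2 and 3. S100a4, a calcium-binding protein of motile mesenchymal cells, was at 8.36, 7.72 and 7.84 CPM in naïve brain and at 552, 698 and 863 CPM in CT2A (log2 fold change 6.46 ± 0.68 SE, edgeR adjusted p = 6.53e-05). Anxa1, annexin A1, was at 23.3, 16.7 and 25.4 CPM and at 966, 1279 and 1932 CPM (log2 fold change 5.997 ± 0.93 SE, edgeR adjusted p = 0.000578). Emp1, an epithelial membrane protein, was at 3.47, 2.99 and 4.06 CPM and at 199, 241 and 198 CPM (log2 fold change 5.92 ± 0.69 SE, edgeR adjusted p = 0.000138). Vim, vimentin, was at 31.4, 53.6 and 31.4 CPM and at 856, 1101 and 979 CPM (log2 fold change 4.66 ± 0.62 SE, edgeR adjusted p = 0.000276). Cd44, the hyaluronan receptor, was at 9.996, 10.5 and 13.2 CPM and at 245, 371 and 373 CPM (log2 fold change 4.88 ± 0.56 SE, edgeR adjusted p = 0.000132). In each of these genes every CT2A sample lay above all naïve samples. Of the transcription factors, Runx1 rose from 1.63, 0.498 and 1.08 CPM to 38.3, 63.5 and 40.4 CPM (log2 fold change 5.42 ± 0.64 SE, edgeR adjusted p = 0.000151). Prrx1 rose from 5.92, 6.97 and 10.5 CPM to 138, 197 and 148 CPM (log2 fold change 4.37 ± 0.56 SE, edgeR adjusted p = 0.000241). Twist1 rose from 1.43, 0.747 and 0.270 CPM to 14.3, 18.01 and 14.5 CPM (log2 fold change 4.18 ± 0.62 SE, edgeR adjusted p = 0.000482). Zeb1 (0.12 ± 0.31 SE), Cdh2 (0.23 ± 0.29 SE), Tagln and Tgm2 were not called, and Snai1 was too low to test. Against the other tumors, 13 of the 21 genes were higher in CT2A and none was lower (median 1.66). S100a4 averaged 704 CPM in CT2A, 36.7 CPM in GL261, 170.3 CPM in 005 and 28.5 CPM in Mut3 (log2 difference 3.64 ± 0.39 SE, edgeR adjusted p = 6.23e-05), and Twist1 15.6, 4.01, 1.89 and 0.276 CPM (log2 difference 3.57 ± 0.39 SE, edgeR adjusted p = 7.37e-05). TPM scaling kept the count at 17.

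Most collagen genes rose, but those of collagen I did not pass the test. Of 19 collagen genes 13 rose and none fell (median 2.47). Col3a1, a fibrillar collagen (chr1:45311538-45349706), was at 5.30, 5.48 and 6.49 CPM in naïve brain and at 348, 551 and 533 CPM in CT2A (log2 fold change 6.37 ± 0.78 SE, edgeR adjusted p = 0.000183). Col4a1, of basement membranes, was at 6.12, 16.7 and 4.06 CPM and at 226, 324 and 306 CPM (log2 fold change 4.99 ± 0.61 SE, edgeR adjusted p = 0.000183). Both chains of collagen I were not called. Col1a1 was at 3.06, 4.48 and 5.14 CPM and at 3.18, 15.2 and 3.62 CPM, and Col1a2 at 9.996, 13.9 and 16.2 CPM and at 5.50, 5.74 and 5.81 CPM, with overlap in the first and not in the second. Col6a3 was the most uneven among the CT2A samples, at 22.96, 14.7 and 68.7 CPM. Against the other tumors 8 collagens were higher in CT2A and 1 lower (median 1.57), with Col3a1 (log2 difference 3.002 ± 0.45 SE, edgeR adjusted p = 0.000783) and Col4a1 (log2 difference 3.03 ± 0.38 SE, edgeR adjusted p = 0.000191) among the former. In collagen maturation 7 of 12 genes rose and 1, the procollagen protease Adamts2, fell. The gains were led by Plod2, a lysyl hydroxylase (4.69, 3.49 and 2.70 CPM against 103, 120.2 and 112 CPM, log2 fold change 4.92 ± 0.60 SE, edgeR adjusted p = 0.000183), and Serpinh1, the collagen chaperone HSP47 (7.14, 24.2 and 5.95 CPM against 177, 168 and 162 CPM, log2 fold change 3.77 ± 0.51 SE, edgeR adjusted p = 0.000292). Lox, lysyl oxidase, stayed near the floor (1.84, 0.498 and 1.35 CPM against 2.93, 2.48 and 0.775 CPM, not called), whereas its relatives Loxl2 and Loxl3 rose (2.17 ± 0.38 SE and 2.99 ± 0.71 SE).

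Genes of the extracellular matrix rose more often than they fell. Of 23 matrix glycoprotein and proteoglycan genes 12 rose and 3 fell, a share below the 20.2% of all tested genes that fell. The 3 are proteoglycans made in the brain. Bcan, brevican, was at 16.5, 52.3 and 12.98 CPM in naïve brain and at 2.93, 1.09 and 1.94 CPM in CT2A (log2 fold change -3.75 ± 0.68 SE, edgeR adjusted p = 0.00141). Ncan, neurocan, was at 77.9, 96.9 and 79.2 CPM and at 29.3, 7.61 and 9.30 CPM (log2 fold change -2.45 ± 0.64 SE, edgeR adjusted p = 0.00851). Cspg5, neuroglycan C, was at 141, 279 and 132 CPM and at 18.6, 7.61 and 8.53 CPM (log2 fold change -3.99 ± 0.69 SE, edgeR adjusted p = 0.00106). Among those that rose were Spp1, osteopontin, from 127, 108 and 187 CPM to 2432, 3012 and 3522 CPM (log2 fold change 4.41 ± 0.74 SE, edgeR adjusted p = 0.000887). Postn, periostin, rose from 0.408, 4.23 and 1.35 CPM to 27.96, 62.9 and 133 CPM (log2 fold change 5.24 ± 0.71 SE, edgeR adjusted p = 0.000303). Vcan, versican, which brain matrix also holds, rose from 4.28, 16.2 and 4.33 CPM to 154, 317 and 239.6 CPM (log2 fold change 4.84 ± 0.74 SE, edgeR adjusted p = 0.00057). Bgn, biglycan, rose from 15.1, 15.2 and 18.4 CPM to 214, 262 and 471 CPM (log2 fold change 4.28 ± 0.57 SE, edgeR adjusted p = 0.000267). Fn1, fibronectin (59.98, 55.3 and 58.4 CPM against 107, 102 and 94.9 CPM), and Tnc, tenascin C (2.65, 6.97 and 5.68 CPM against 7.57, 10.4 and 8.53 CPM), both often high in glioma, were not called (edgeR adjusted p = 0.135 and 0.227). Proteases and their inhibitors rose in 9 of 22 cases. Plaur and Plau, the urokinase receptor and urokinase, rose by 4.51 ± 0.73 SE and 3.41 ± 0.61 SE (edgeR adjusted p = 0.000749 and 0.00128). Mmp14, the membrane metalloprotease that activates Mmp2, rose from 2.65, 2.49 and 3.52 CPM to 22.5, 39.6 and 38.4 CPM (log2 fold change 3.53 ± 0.80 SE, edgeR adjusted p = 0.00442). Mmp2 itself was at 3.67, 3.49 and 3.24 CPM and at 4.88, 5.74 and 10.3 CPM, and Mmp3, a stromelysin, at 14.5, 12.95 and 20.6 CPM and at 18.4, 19.9 and 17.6 CPM, and neither was called. Timp1, an inhibitor of these proteases, rose from 27.5, 32.9 and 36.0 CPM to 136, 208 and 159 CPM (log2 fold change 2.38 ± 0.52 SE, edgeR adjusted p = 0.00362), and Timp4 fell (-1.20 ± 0.45 SE).

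Ligands of the TGF-beta family differed. Of 17 genes 9 rose and 1 fell, with a median of 1.12 (0.76 with Gdf15, which had no count in naïve brain, at its bound). Inhba, the subunit of activin A, rose from 3.67, 7.47 and 5.14 CPM to 71.6, 108 and 133 CPM (log2 fold change 4.26 ± 0.73 SE, edgeR adjusted p = 0.001), and it ranged only from 0.207 to 5.77 CPM in the 9 other tumors (log2 difference 5.83 ± 0.50 SE, edgeR adjusted p = 9.16e-06). Tgfb1 was at 1.43, 7.22 and 2.16 CPM and at 4.64, 1.55 and 5.30 CPM and was not called, while the receptors Tgfbr1 and Tgfbr2 rose (1.12 ± 0.41 SE and 1.29 ± 0.43 SE). Ccn2, a target gene of the pathway, was at 24.9, 25.7 and 20.6 CPM and at 23.8, 10.2 and 6.20 CPM and was not called. With TPM scaling 2 genes of the list were called higher.

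Stem and progenitor factors moved in both directions. Of 20 genes 5 rose and 11 fell. Sox2 rose from 16.1, 36.1 and 13.2 CPM to 50.1, 87.7 and 72.7 CPM (log2 fold change 1.68 ± 0.42 SE, edgeR adjusted p = 0.00659). Nes, nestin, rose from 1.63, 2.99 and 4.60 CPM to 10.7, 21.7 and 26.0 CPM (log2 fold change 2.68 ± 0.74 SE, edgeR adjusted p = 0.0116). Hes1, a Notch target, rose from 8.57, 9.96 and 8.11 CPM to 23.9, 38.8 and 45.3 CPM (log2 fold change 2.02 ± 0.46 SE, edgeR adjusted p = 0.00437). Hes5, the Notch target of neural progenitors, was at 3.88, 8.22 and 2.97 CPM and at 0.244, 0 and 0 CPM, and higher in naïve brain by a factor of 55.9 (95% exact counting interval 14.8 to 471) in scaled counts. Dcx, of migrating neuroblasts, fell from 8.57, 20.4 and 8.65 CPM to 1.83, 0.621 and 1.16 CPM (log2 fold change -3.35 ± 1.16 SE, edgeR adjusted p = 0.032). Fabp7, the lipid-binding protein of radial glia, fell from 262, 130.3 and 619.5 CPM to 70.3, 37.1 and 61.1 CPM (log2 fold change -2.58 ± 0.52 SE, edgeR adjusted p = 0.00242). Pax6, Nfia and Nfib were not called. Against the other tumors 6 of these genes were lower in CT2A and 1 higher (median -1.02). Dcx was not called without naïve replicate 2 (log2 fold change -2.60). The count of genes that fell was 6 without CT2A replicate 3, 7 without CT2A replicate 2 and 6 without naïve replicate 2, and 1 gene was called higher with TPM scaling.

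Oncofetal genes and Hox genes of the limb and trunk were among the gains. Hmga2, a chromatin protein of embryonic tissue (chr10:120361275-120476469), rose from 5.10, 5.98 and 7.03 CPM to 99.2, 157 and 99.98 CPM (log2 fold change 4.30 ± 0.71 SE, edgeR adjusted p = 0.00087). Igf2bp3, an RNA-binding protein of the embryo, rose from 4.49, 3.49 and 4.60 CPM to 20.4, 21.4 and 10.1 CPM (log2 fold change 2.04 ± 0.55 SE, edgeR adjusted p = 0.0103). Igf2bp2 was not called (0.38 ± 0.27 SE), and Lin28a and Lin28b were too low to test. The imprinted genes Igf2 and Peg3 fell (-3.12 ± 0.77 SE and -2.36 ± 0.78 SE, edgeR adjusted p = 0.00669 and 0.0256). Hox genes give positional identity along the body axis and are silent in the forebrain. Of the 39 Hox genes 12 were tested, and 11 of these rose in CT2A, beside 19.0% of all tested genes. The filter on low counts ran over all 15 samples. In naïve brain 0 Hoxa, 1 Hoxc and 1 Hoxd gene passed 1 CPM in any sample. Genes this low in naïve brain entered the test through tumor samples, so the share that rose was largely set by the filter. In the Hoxa cluster (chr6:52155590-52260880) 6 of 7 tested genes rose, in Hoxc (chr15:102921103-103036852) 3 of 3 and in Hoxd (chr2:74668310-74765142) 2 of 2, whereas none of the 10 Hoxb genes (chr11:96194316-96368256) had enough counts to be tested. Hoxa10 was at 0.204, 0.996 and 0.811 CPM in naïve brain and at 26.0, 46.4 and 40.9 CPM in CT2A (log2 fold change 5.83 ± 1.04 SE, edgeR adjusted p = 0.00131). Hoxa7, with 1 count in naïve brain, was at 21.6, 34.2 and 26.5 CPM in CT2A, higher by a factor of 339 (95% exact counting interval 60.7 to 13429). Hoxc10, at 7.08, 10.4 and 10.5 CPM, and Hoxc9, at 6.59, 12.6 and 5.04 CPM, had no count in naïve brain and were at least 38.7-fold and at least 32.7-fold higher. Hoxa9, also without a count in naïve brain, was at least 24.8-fold higher. Hoxd8 and Hoxd10 were higher by factors of 48.5 (95% exact counting interval 13.2 to 404) and 34.1 (95% exact counting interval 9.24 to 285). Hoxa11, which lies next to Hoxa10, was at 0.122, 0 and 0 CPM in CT2A. Against the other tumors 2 Hoxa, 3 Hoxc and 1 Hoxd gene were higher in CT2A. Hoxc11 ranged from 0 to 0.241 CPM in the 9 other tumors and was at 2.56, 8.23 and 5.94 CPM in CT2A, and Hoxc10 averaged 3.03 CPM in GL261, 0.0475 CPM in 005 and 0.158 CPM in Mut3.

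**Figure D4:**
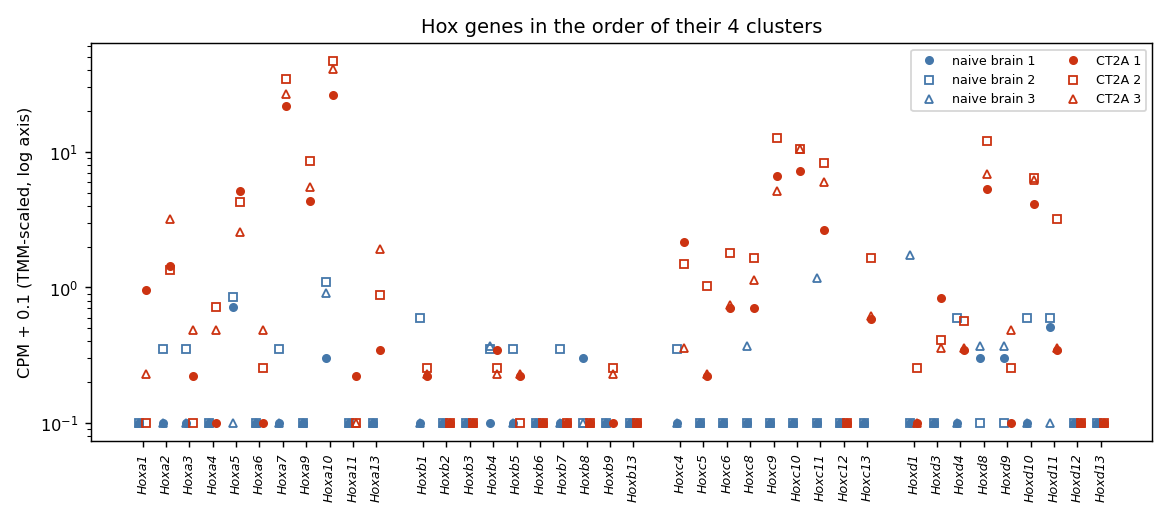
Level of the 39 Hox genes in each sample (y axis, CPM + 0.1, log scale), ordered by number within the clusters Hoxa, Hoxb, Hoxc and Hoxd, with naïve brain in blue and CT2A in red. CT2A samples stand above naïve brain at Hoxa2, Hoxa5, Hoxa7, Hoxa9, Hoxa10, Hoxc9 to Hoxc11, Hoxd8 and Hoxd10, and both groups stay near the bottom in the Hoxb cluster.

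Receptor tyrosine kinases of glioma changed in both directions. Of 21 genes 6 rose and 7 fell (median 0.35). Fgfr1 rose from 14.7, 24.7 and 11.6 CPM to 84.3, 92.4 and 81.9 CPM (log2 fold change 2.34 ± 0.36 SE, edgeR adjusted p = 0.000595). Axl, the receptor of Gas6, rose from 8.36, 14.9 and 5.14 CPM to 34.7, 38.3 and 37.6 CPM (log2 fold change 1.96 ± 0.48 SE, edgeR adjusted p = 0.00628). Met, the receptor of hepatocyte growth factor, rose from 3.06, 10.5 and 1.08 CPM to 16.4, 36.2 and 12.3 CPM (log2 fold change 2.14 ± 0.79 SE, edgeR adjusted p = 0.0415). Fgfr2 fell from 9.79, 26.4 and 20.3 CPM to 3.05, 0.310 and 1.29 CPM (log2 fold change -3.56 ± 0.94 SE, edgeR adjusted p = 0.00896). Erbb4, the neuregulin receptor of interneurons, fell from 34.5, 258 and 17.8 CPM to 6.72, 1.55 and 1.03 CPM (log2 fold change -5.04 ± 1.53 SE, edgeR adjusted p = 0.0175), where naïve replicate 2 stood far above the others. Without that sample Erbb4 was not called (log2 fold change -2.85). Egfr, the receptor most often altered in human glioblastoma, was low and overlapped (6.73, 7.72 and 1.35 CPM against 7.82, 2.48 and 9.95 CPM, not called). Of the ligands Pdgfc rose from 3.06, 4.98 and 3.52 CPM to 26.5, 18.6 and 14.5 CPM (log2 fold change 2.36 ± 0.50 SE, edgeR adjusted p = 0.00314), and Gas6 fell (-2.35 ± 0.73 SE). The count that fell was 3 without CT2A replicate 3 and 4 without naïve replicate 2, and with TPM scaling 1 gene was called higher. Of 13 genes of RAS-ERK feedback and AP-1 7 rose and none fell. Fosl1, the AP-1 subunit of RAS-driven and mesenchymal cells, rose from 1.02, 0 and 0.811 CPM to 57.4, 90.4 and 80.5 CPM (log2 fold change 6.89 ± 0.99 SE, edgeR adjusted p = 0.000407). Spry1, a feedback inhibitor, rose from 2.45, 1.99 and 1.35 CPM to 29.4, 26.1 and 33.5 CPM (log2 fold change 3.92 ± 0.67 SE, edgeR adjusted p = 0.000991). Dusp6, the ERK phosphatase, rose from 29.99, 39.1 and 27.9 CPM to 48.6, 77.5 and 83.96 CPM (log2 fold change 1.11 ± 0.40 SE, edgeR adjusted p = 0.0386). Spry2, Etv1 and Etv5 were not called, with log2 fold changes of -0.35, 0.19 and -0.59. With TPM scaling, 3 were called higher.

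Few endothelial genes passed the test. Of 15 general endothelial genes 2 rose and none fell (median 0.14), and the summed level was 67.4%, 66.8% and 68.6% of the naïve mean in CT2A. Pecam1, CD31, which made up most of that sum, was at 138, 162 and 149 CPM in naïve brain and at 83.9, 77.3 and 85.4 CPM in CT2A, lower without overlap but by less than the fold threshold (log2 fold change -0.86 ± 0.25 SE, edgeR adjusted p = 0.0148). Cdh5, VE-cadherin, was at 3.47, 4.98 and 3.24 CPM and at 5.50, 4.04 and 3.36 CPM (not called). Emcn and Vwf rose (1.37 ± 0.35 SE and 1.22 ± 0.47 SE, edgeR adjusted p = 0.00811 and 0.0478). Of the barrier genes, the organic anion transporters Slco1a4 and Slco1c1 fell from 14.7, 15.7 and 26.0 CPM to 4.27, 3.57 and 3.49 CPM (log2 fold change -2.31 ± 0.50 SE, edgeR adjusted p = 0.00363) and from 29.8, 20.9 and 45.4 CPM to 9.77, 4.50 and 4.91 CPM (log2 fold change -2.32 ± 0.65 SE, edgeR adjusted p = 0.012), and so did Abcb1a, P-glycoprotein (157, 10.5 and 5.14 CPM against 3.54, 3.73 and 1.16 CPM, log2 fold change -4.35 ± 1.05 SE, edgeR adjusted p = 0.00585). The fall of Abcb1a rested on naïve replicate 1, without which it was not called (log2 fold change -1.46). Cldn5, the tight junction claudin of brain vessels, and Mfsd2a, a gatekeeper of transcytosis, were not called (-0.56 ± 0.57 SE and 0.03 ± 0.36 SE). Of factors of tumor vessels 7 of 16 rose and 2 fell. Angpt2, which loosens vessels, rose from 5.10, 2.99 and 2.16 CPM to 15.9, 17.2 and 19.8 CPM (log2 fold change 2.34 ± 0.48 SE, edgeR adjusted p = 0.00281). Pgf, placental growth factor, rose from 0.612, 0.747 and 2.70 CPM to 5.37, 8.07 and 11.1 CPM (log2 fold change 2.61 ± 0.67 SE, edgeR adjusted p = 0.00768). Plvap, of fenestrated vessels, fell from 3.26, 7.22 and 2.70 CPM to 0.733, 0.931 and 2.33 CPM (log2 fold change -1.71 ± 0.56 SE, edgeR adjusted p = 0.0261), and Cxcl12 fell from 24.1, 32.9 and 21.9 CPM to 3.66, 1.24 and 2.07 CPM (log2 fold change -3.48 ± 0.79 SE, edgeR adjusted p = 0.00454) while its receptor Cxcr4 rose from 0.204, 0.249 and 0.541 CPM to 1.71, 3.73 and 7.23 CPM (log2 fold change 3.65 ± 0.83 SE, edgeR adjusted p = 0.00444). Plvap was not called without naïve replicate 2 (log2 fold change -0.95). Without CT2A replicate 2 or 3 or naïve replicate 2, 4 of these genes were called higher, and with TPM scaling 3. Of the pericyte genes, Pdgfrb and Tbx18 rose (1.98 ± 0.56 SE and 2.36 ± 0.68 SE), Vtn fell (-2.15 ± 0.41 SE), and Rgs5 and Acta2 were not called (-0.54 ± 0.40 SE and 0.07 ± 0.39 SE).

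Genes of antigen presentation on MHC class I rose. Of 18 genes 14 rose and none fell (median 3.17). B2m, the light chain of all class I molecules, rose from 483, 395 and 564 CPM to 8354, 11458 and 12827 CPM (log2 fold change 4.50 ± 0.62 SE, edgeR adjusted p = 0.000336). H2-K1 rose from 41.0, 69.0 and 43.3 CPM to 539.9, 604 and 693 CPM (log2 fold change 3.58 ± 0.59 SE, edgeR adjusted p = 0.000796). H2-D1 rose from 36.1, 52.1 and 50.3 CPM to 484, 638 and 692 CPM (log2 fold change 3.71 ± 0.56 SE, edgeR adjusted p = 0.000512). Tap1, a peptide transporter, rose by 3.08 ± 0.73 SE, Psmb8 and Psmb9, of the immunoproteasome, by 3.55 ± 0.69 SE and 3.81 ± 0.81 SE, and Nlrc5, the class I transactivator, from 2.04, 1.49 and 1.35 CPM to 15.02, 17.9 and 18.1 CPM (log2 fold change 3.36 ± 0.66 SE, edgeR adjusted p = 0.00218). H2-T23, Psmb10, Psme1 and Tapbp were not called, and the class I genes H2-Q6 and H2-Q7 share reads with each other. Of MHC class II, 5 of 11 genes rose (median 1.85, 1.70 with Ciita at its bound). H2-Aa rose from 37.7, 47.8 and 46.8 CPM to 140.2, 254 and 239.6 CPM (log2 fold change 2.26 ± 0.76 SE, edgeR adjusted p = 0.0282), and Cd74, the invariant chain, was at 3.06, 3.74 and 7.84 CPM and at 9.40, 20.6 and 17.3 CPM and was not called. Ciita, the class II transactivator, had no count in naïve brain and was at 0.366, 0 and 0.775 CPM in CT2A, near the floor. Between 2 and 3 class II genes were called without CT2A replicate 2 or 3 or any naïve replicate, 3 with the replicate number as a block and 0 with TPM scaling. Against the other tumors 3 class II genes were lower in CT2A (median -1.998). H2-Eb1 averaged 30.4 CPM in CT2A, 338 CPM in GL261, 401 CPM in 005 and 37.3 CPM in Mut3 (log2 difference -2.50 ± 0.67 SE, edgeR adjusted p = 0.0311). Its CT2A samples, at 27.4, 25.5 and 38.2 CPM, overlapped with the lowest of the other tumors, which ranged from 15.2 to 935 CPM.

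Genes induced by type I interferon rose nearly without exception. Of 24 genes 21 rose and none fell (median 3.62), and the summed level was 793%, 1129% and 1222% of the naïve mean in CT2A 1, 2 and 3. Ifit1, which binds foreign RNA caps, was at 13.9, 5.48 and 6.76 CPM in naïve brain and at 167, 242 and 286 CPM in CT2A (log2 fold change 4.72 ± 0.56 SE, edgeR adjusted p = 0.000162). Ifit3 was at 33.7, 12.7 and 28.7 CPM and at 229, 359 and 383 CPM (log2 fold change 3.69 ± 0.53 SE, edgeR adjusted p = 0.000385). Isg15, the ubiquitin-like modifier, was at 0.612, 0.249 and 1.08 CPM and at 10.7, 13.8 and 11.6 CPM (log2 fold change 4.203 ± 0.76 SE, edgeR adjusted p = 0.00138). Bst2, tetherin, was at 3.26, 4.73 and 2.70 CPM and at 93.5, 112 and 125 CPM (log2 fold change 4.94 ± 0.54 SE, edgeR adjusted p = 9.67e-05). Irf7, the factor that amplifies the response, was at 2.04, 2.24 and 0.270 CPM and at 15.1, 28.9 and 38.4 CPM (log2 fold change 4.14 ± 0.72 SE, edgeR adjusted p = 0.00117). In each of these genes all CT2A samples were above all naïve samples, with replicate 1 the lowest tumor. Stat2, Oas3 and Cmpk2 were not called (0.79, 1.24 and 0.09 on the log2 scale). Against the other tumors 13 of the 24 genes were higher in CT2A (median 1.56). Ifit1 averaged 232 CPM in CT2A, 129 CPM in GL261, 27.4 CPM in 005 and 9.12 CPM in Mut3 (log2 difference 2.87 ± 0.35 SE, edgeR adjusted p = 0.000176). Interferon gamma, made by T and NK cells, induces a partly separate list. Of 18 genes 12 rose over naïve brain (median 2.53) and their median against the other tumors was -0.64, with 0 higher and 0 lower. Gbp2, a guanylate-binding protein, rose from 17.3, 19.4 and 17.8 CPM to 236, 229 and 255 CPM (log2 fold change 3.72 ± 0.84 SE, edgeR adjusted p = 0.00422). Irf1, the first factor of the response, rose from 8.36, 11.2 and 8.11 CPM to 34.6, 38.3 and 65.5 CPM (log2 fold change 2.32 ± 0.61 SE, edgeR adjusted p = 0.00904). Ifng itself had 2 counts over the naïve samples and was at 0.977, 0.310 and 0.646 CPM in CT2A, near the floor. TPM scaling left 18 and 7 genes of the lists called.

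Interferons act through elements in the promoters of these genes: type I interferon through the interferon-stimulated response element (ISRE, searched as GAAA, any 2 bases and GAAA) and interferon gamma through the GAS element (searched as TTCNNNGAA). In the RefSeq promoters the ISRE was found in 10 of 18 type I genes with a promoter in the table (55.6%), in 9 of 14 interferon-gamma genes (64.3%), in 4 of 16 MHC class I genes (25%) and in 3.99% of all genes. GAS was found in 3 of the 18 type I genes, in 8 of 14 interferon-gamma genes (57.1%) and in 9.55% of all genes. The ISRE on the other strand reads TTTC, any 2 bases and TTTC, and matches that run into each other are capitalized as 1 run. The ISRE was not repeated in every gene that rose, and the windows of Rsad2, Ifih1 and Ddx58 hold 1 match each. Shown are windows of 4 genes that rose strongly and hold repeated elements, at chr4:156200850-156200921 (Isg15, minus strand), chr19:34640760-34640838 (Ifit1, plus), chr19:34583348-34583441 (Ifit3, plus) and chr8:71537562-71537627 (Bst2, minus).
Isg15: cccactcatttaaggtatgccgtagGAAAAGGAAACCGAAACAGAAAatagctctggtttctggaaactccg
Ifit1: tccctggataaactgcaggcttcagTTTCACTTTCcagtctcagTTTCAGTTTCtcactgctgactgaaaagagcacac
Ifit3: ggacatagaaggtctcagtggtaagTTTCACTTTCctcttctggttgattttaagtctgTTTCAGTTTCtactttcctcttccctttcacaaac
Bst2: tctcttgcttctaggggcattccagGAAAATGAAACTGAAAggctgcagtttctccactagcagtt
For the interferon-gamma list, the windows of Irf1 (chr11:53769899-53769957, plus) and Gbp7 (chr3:142530205-142530282, plus) show GAS in capitals.
Irf1: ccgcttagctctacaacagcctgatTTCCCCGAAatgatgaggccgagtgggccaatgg
Gbp7: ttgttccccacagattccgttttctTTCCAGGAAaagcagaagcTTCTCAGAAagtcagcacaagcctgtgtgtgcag
Gbp7 was at 8.98, 8.47 and 6.76 CPM in naïve brain and at 81.6, 107 and 100.4 CPM in CT2A (log2 fold change 3.57 ± 0.68 SE, edgeR adjusted p = 0.00179).

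Some genes of T cells, of cytotoxic cells and of immune checkpoints rose. Of 16 T cell genes 8 rose and 1 fell. Cd8a, the coreceptor of cytotoxic T cells, was at 0.408, 0.249 and 0.270 CPM in naïve brain and at 3.30, 6.68 and 8.14 CPM in CT2A (log2 fold change 4.19 ± 0.91 SE, edgeR adjusted p = 0.00363). Cd3g was at 0.816, 0.498 and 2.97 CPM and at 7.08, 15.7 and 17.95 CPM (log2 fold change 3.27 ± 0.81 SE, edgeR adjusted p = 0.0066). Trac, the constant region of the receptor alpha chain, was at 0.612, 1.74 and 1.89 CPM and at 8.91, 7.92 and 9.30 CPM (log2 fold change 2.64 ± 0.70 SE, edgeR adjusted p = 0.00955). Cd4, the coreceptor of helper T cells, was called lower, at 1.22, 26.4 and 4.60 CPM against 1.71, 1.71 and 1.29 CPM (log2 fold change -2.76 ± 0.89 SE, edgeR adjusted p = 0.023). The groups overlapped, and without naïve replicate 2 the log2 fold change was -0.66 and not called. Foxp3, the factor of regulatory T cells, had no count in CT2A, which leaves levels under the floor undetected. Of 14 cytotoxic and NK genes 8 rose. Gzmb, granzyme B, rose from 1.84, 1.99 and 1.08 CPM to 57.2, 45.6 and 64.5 CPM (log2 fold change 5.06 ± 0.78 SE, edgeR adjusted p = 0.000573). Nkg7 rose from 1.84, 1.49 and 1.62 CPM to 17.3, 19.4 and 28.5 CPM (log2 fold change 3.70 ± 0.86 SE, edgeR adjusted p = 0.00487), and Prf1, perforin, from 2 counts by a factor of 18.9 (95% exact counting interval 5.03 to 159). In each the groups did not overlap. Among checkpoint genes 6 of 13 rose. Cd274, PD-L1, rose from 3.26, 5.23 and 2.97 CPM to 12.2, 21.4 and 18.99 CPM (log2 fold change 2.19 ± 0.72 SE, edgeR adjusted p = 0.0258), Pdcd1, PD-1, was at 0.366, 2.17 and 2.71 CPM in CT2A, higher by a factor of 21.4 (95% exact counting interval 3.62 to 868), and Arg1, arginase, rose from 2.86, 5.98 and 3.79 CPM to 63.1, 71.7 and 22.9 CPM (log2 fold change 3.64 ± 0.78 SE, edgeR adjusted p = 0.00338). Ctla4 was at 2.45, 0 and 0.270 CPM and at 2.69, 0.776 and 1.94 CPM and was not called, and Lag3 and Tigit were too low to test. Of 6 testable B and plasma cell genes only Sdc1, which tumor cells carry too, rose. Calls fell to 5 T cell genes without naïve replicate 1, to 5 cytotoxic genes without naïve replicate 3 and to 3 checkpoint genes without CT2A replicate 3, and TPM scaling left 3, 4 and 3.

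Genes of infiltrating monocytes and macrophages rose, while those of homeostatic microglia did not move together. Of 16 homeostatic microglia genes 4 fell and 2 rose (median -0.43), against 20.2% and 19.0% of all tested genes. TPM scaling left 8 called lower and neither of those that rose, and without CT2A replicate 2 the count that fell was 1. P2ry12, the purinergic receptor that marks resting microglia, fell from 60.2, 31.9 and 57.6 CPM to 12.5, 8.07 and 7.49 CPM (log2 fold change -2.41 ± 0.57 SE, edgeR adjusted p = 0.00533). Gpr34 fell from 20.2, 12.7 and 24.6 CPM to 5.62, 2.95 and 5.81 CPM (log2 fold change -1.99 ± 0.52 SE, edgeR adjusted p = 0.00884). Tmem119 was at 1.63, 12.7 and 5.41 CPM and at 5.98, 6.37 and 9.69 CPM and Cx3cr1, the fractalkine receptor, at 23.7, 16.2 and 22.98 CPM and at 15.4, 14.9 and 15.4 CPM, and neither was called. The members that rose, Sparc and Rnase4, are made by many other cells. Of 17 genes of infiltrating monocytes and macrophages 10 rose and none fell (median 2.48). Ly6c2, of inflammatory monocytes, rose from 1.02, 1.74 and 2.16 CPM to 12.6, 30.4 and 30.1 CPM (log2 fold change 3.90 ± 0.89 SE, edgeR adjusted p = 0.00451). Ms4a7, of macrophages that entered the brain, rose from 3.47, 1.25 and 3.79 CPM to 31.3, 83.5 and 103 CPM (log2 fold change 4.67 ± 0.81 SE, edgeR adjusted p = 0.00113). Fcgr4, an activating Fc receptor, rose from 1.22, 2.99 and 1.35 CPM to 56.2, 47.5 and 47.1 CPM (log2 fold change 4.76 ± 0.84 SE, edgeR adjusted p = 0.00124). Chil3 was uneven in CT2A, at 36.6, 2.17 and 66.0 CPM. Ptprc, CD45, rose from 4.49, 1.74 and 1.89 CPM to 19.5, 37.4 and 37.2 CPM (log2 fold change 3.50 ± 0.77 SE, edgeR adjusted p = 0.00391), as did 13 of 16 leukocyte surface genes in all, whereas Coro1a, a leukocyte actin regulator that neurons also express, fell (-1.64 ± 0.47 SE). Ccr2, the receptor of recruited monocytes, was just outside the threshold (2.86, 0 and 1.89 CPM against 4.76, 9.31 and 11.2 CPM, edgeR adjusted p = 0.0517).

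Part of the genes of lipid-associated macrophages rose. Of 18 genes 11 rose and 1 fell (median 2.02, 1.80 with Atp6v0d2 at its bound). Cst7, cystatin F, rose from 1.22, 1.49 and 1.35 CPM to 16.4, 18.6 and 17.4 CPM (log2 fold change 3.68 ± 0.65 SE, edgeR adjusted p = 0.0012). Plin2, of lipid droplets, rose from 13.5, 5.98 and 17.3 CPM to 111, 153 and 128 CPM (log2 fold change 3.41 ± 0.56 SE, edgeR adjusted p = 0.000804). Cd68 rose from 28.4, 14.2 and 30.3 CPM to 61.5, 84.9 and 95.2 CPM (log2 fold change 1.73 ± 0.48 SE, edgeR adjusted p = 0.0119). Trem2, the receptor at the head of this program, was at 3.06, 7.47 and 3.52 CPM and at 9.04, 9.005 and 5.04 CPM, and Apoe, which astrocytes also make, at 800.1, 568 and 892 CPM and at 519.9, 413 and 511 CPM, and neither was called. Lpl, lipoprotein lipase, fell from 19.99, 22.7 and 15.95 CPM to 3.42, 0.776 and 0.775 CPM (log2 fold change -3.53 ± 0.64 SE, edgeR adjusted p = 0.00148). Of 15 complement genes 8 rose, 5 without naïve replicate 1. C1qa, of the first component, rose from 4.49, 5.98 and 1.89 CPM to 9.53, 13.4 and 16.7 CPM (log2 fold change 1.67 ± 0.55 SE, edgeR adjusted p = 0.0253), and the receptors C3ar1 and C5ar1 by 3.24 ± 0.52 SE and 3.05 ± 0.56 SE, whereas C3 itself was at 1.43, 1.99 and 8.11 CPM and at 16.6, 12.6 and 14.7 CPM and was not called.

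Chemokines that attract T cells and monocytes rose. Of 20 genes 12 rose and 2 fell. Cxcl9, a ligand of CXCR3, rose from 0.612, 1.25 and 4.06 CPM to 35.9, 36.2 and 48.6 CPM (log2 fold change 4.39 ± 1.23 SE, edgeR adjusted p = 0.0124). Cxcl10 rose from 17.3, 23.2 and 18.9 CPM to 115, 132 and 189 CPM (log2 fold change 2.87 ± 0.81 SE, edgeR adjusted p = 0.0129). Ccl5 rose from 51.00, 65.5 and 61.4 CPM to 326, 380.2 and 536 CPM (log2 fold change 2.80 ± 0.78 SE, edgeR adjusted p = 0.0117). Ccl2, the ligand of CCR2, rose by little more than the threshold, from 133, 142 and 154 CPM to 226, 258 and 392 CPM (log2 fold change 1.03 ± 0.34 SE, edgeR adjusted p = 0.0261). Besides Cxcl12, Cx3cl1, the fractalkine of neurons, fell, from 116, 264 and 111 CPM to 22.7, 10.9 and 22.5 CPM (log2 fold change -3.13 ± 0.64 SE, edgeR adjusted p = 0.00262). Without CT2A replicate 3, 7 of these genes were called higher, and 5 with TPM scaling. Of neutrophil genes 2 of 12 rose, beside 19.0% of all tested genes. S100a8 was at 2.45, 2.74 and 1.35 CPM and at 2.44, 2.48 and 6.85 CPM and Cxcl5 at 13.9, 11.7 and 16.8 CPM and at 6.11, 9.63 and 8.01 CPM, and neither was called. Of dendritic cell genes 3 of 12 rose, a share to be read beside the same 19.0%. These were Itgax, Bst2 and Ccr7, none of which is made by dendritic cells alone. Flt3, the growth factor receptor of dendritic cells, was not called (-0.68 ± 0.63 SE). Among cytokines and receptors 6 of 20 rose and 1 fell. Il1rn, the antagonist of the interleukin-1 receptor, rose from 0.408, 0.747 and 0.270 CPM to 5.37, 14.9 and 12.9 CPM (log2 fold change 4.49 ± 0.89 SE, edgeR adjusted p = 0.00223). Csf1, the growth factor of macrophages, rose from 9.79, 5.98 and 5.14 CPM to 14.7, 15.2 and 17.7 CPM (log2 fold change 1.177 ± 0.39 SE, edgeR adjusted p = 0.0273), and Il18 fell from 46.1, 18.7 and 48.7 CPM to 7.57, 8.23 and 6.59 CPM (log2 fold change -2.34 ± 0.40 SE, edgeR adjusted p = 0.000996). Il1b (4.08, 5.98 and 4.60 CPM against 5.01, 11.6 and 30.4 CPM), Il6 and Tnf were not called.

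**Figure D5:**
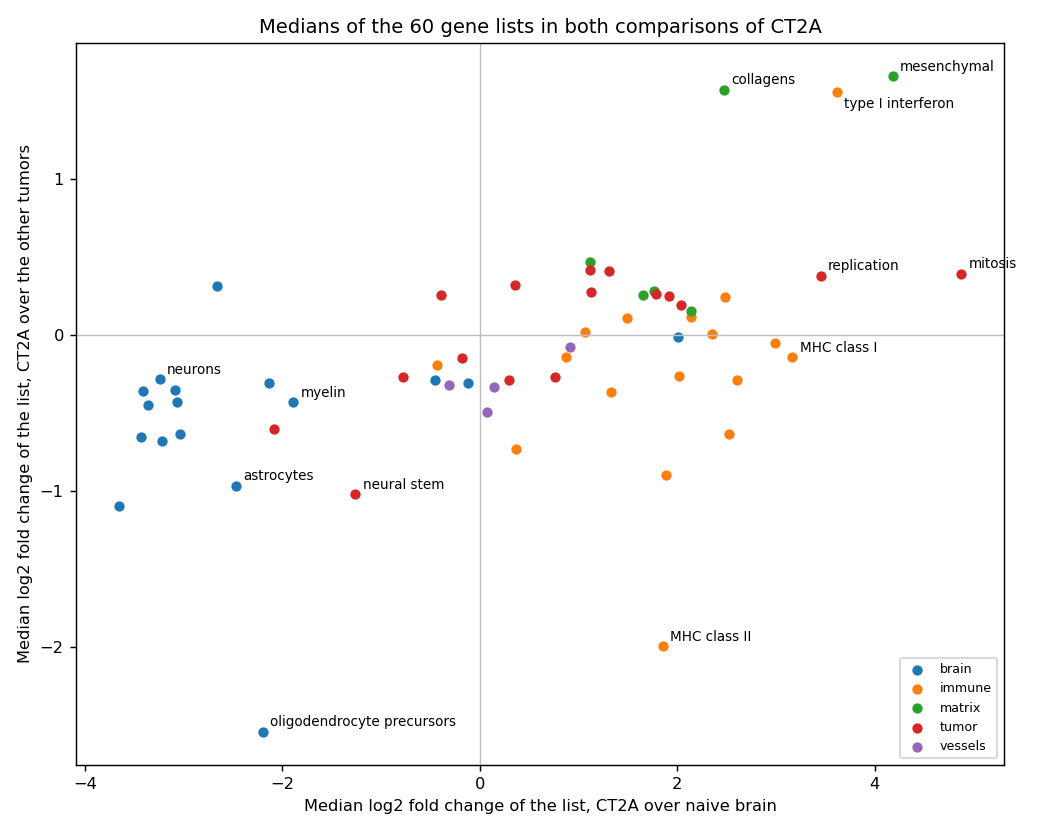
Median log2 fold change of CT2A over naïve brain (x axis) and over the mean of the 3 other tumors (y axis) for each of 60 gene groups, coloured by theme. Both contrasts use the same 3 CT2A samples. Brain groups lie at the left, mitosis and mesenchymal groups at the right, and oligodendrocyte precursor and MHC class II genes lie lowest and mesenchymal, collagen and type I interferon genes highest on the y axis.

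Among single genes outside the lists, the largest gains with at least 3 naïve counts were in Klra4, an NK receptor of a family with shared reads, at 71.4, 96.3 and 45.1 CPM in CT2A and higher by a factor of 292 (95% exact counting interval 99.8 to 1418), and in the granzymes Gzmc and Gzmd. Gzmc was at 68.5, 41.8 and 84.6 CPM in CT2A, higher by a factor of 279 (95% exact counting interval 95.3 to 1355), and Gzmd at 90.4, 71.9 and 58.9 CPM. Granzymes of this cluster resemble each other, so that the split between them is uncertain. Adh7, a retinol-oxidizing alcohol dehydrogenase of epithelia (chr3:138217760-138233382), rose from 2.86, 2.49 and 4.33 CPM to 438, 532 and 638 CPM (log2 fold change 7.38 ± 0.56 SE, edgeR adjusted p = 8.27e-06). Coro2a, a coronin, rose from 6.12, 5.48 and 5.41 CPM to 612, 897 and 977 CPM (log2 fold change 7.19 ± 0.64 SE, edgeR adjusted p = 2.08e-05). Lgals7, an epithelial galectin (7.74 ± 0.96 SE), Knl1, of the kinetochore (7.48 ± 0.92 SE), Sinhcaf (7.37 ± 0.87 SE), the non-coding RNA Wincr1 (6.95 ± 0.70 SE), Ifi211, of the interferon-induced PYHIN family (6.82 ± 0.96 SE), and Tes, testin of focal adhesions (6.75 ± 0.70 SE), complete the set with Fosl1. Of genes under 3 counts in naïve brain, Frk, a kinase of the Src family, was at 24.4, 36.2 and 36.4 CPM in CT2A, higher by a factor of 403 (95% exact counting interval 72.1 to 15946). Hal, histidine ammonia-lyase, was at 10.1, 17.2 and 16.8 CPM, at least 60.9-fold higher, and Mbnl3, a splicing regulator, at 6.96, 14.7 and 16.1 CPM, higher by a factor of 78.1 (95% exact counting interval 21.4 to 648). Dnah10 was uneven, at 3.18, 0.621 and 31.3 CPM. In total 287 of the genes that rose had under 3 counts in naïve brain and 101 of those that fell under 3 counts in CT2A.

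The largest losses were uneven among the naïve samples. Gh and Prl, hormones of the pituitary, were at 621, 186 and 70.8 CPM and 1179, 248 and 97.3 CPM in naïve brain and at 2.81, 2.17 and 11.5 CPM and 8.55, 9.94 and 13.95 CPM in CT2A, with naïve replicate 1 the highest (-5.73 ± 1.13 SE and -5.55 ± 1.11 SE). Ranbp3l was at 62.4, 1.74 and 2.97 CPM and at 0.366, 0 and 0.129 CPM (log2 fold change -6.88 ± 1.57 SE, edgeR adjusted p = 0.00452), with naïve replicate 1 the highest, and without that sample it was not called (log2 fold change -3.65). Cdhr1 and Phf24 were highest in naïve replicate 3 (4.90, 7.97 and 19.2 CPM and 42.8, 118 and 275 CPM). What share of these values came with dissected tissue was not tested. Neuronal genes of the set were more even. Slc8a2, a sodium-calcium exchanger, was at 13.9, 34.4 and 12.2 CPM and at 0.733, 0.310 and 0.517 CPM (log2 fold change -5.21 ± 0.91 SE, edgeR adjusted p = 0.00112). Ankrd63 was at 11.8, 24.9 and 11.6 CPM and at 0.733, 0.155 and 0.388 CPM (log2 fold change -5.15 ± 1.12 SE, edgeR adjusted p = 0.00363). Kcnh3, a potassium channel of the forebrain, was at 4.28, 19.7 and 5.68 CPM and at 0.488, 0.155 and 0.129 CPM (log2 fold change -5.14 ± 1.24 SE, edgeR adjusted p = 0.00589). Abcc8, the sulfonylurea receptor, was at 8.77, 13.5 and 4.60 CPM and at 0.366, 0 and 0.129 CPM (log2 fold change -5.56 ± 1.37 SE, edgeR adjusted p = 0.00665). Gpr6, of striatal neurons, had a log2 fold change of -5.15 ± 1.61 SE, which was -4.54 and not called without CT2A replicate 2. Ryr1, a calcium release channel, had 3 counts in all CT2A samples and was higher in naïve brain by a factor of 81.6 (95% exact counting interval 27.3 to 400.4).

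By level per gene length, S100a6 was among the 8 most abundant messages that rose, at 218 ± 48.6 TPM in naïve brain and 6507 ± 971 TPM in CT2A (mean ± SD, n = 3). Lgals1, galectin 1, was at 319.7 ± 104 TPM and 5460.3 ± 689.8 TPM, and Rpl32, of the ribosome, at 1900.4 ± 47.7 TPM and 6265 ± 439 TPM. The ribosomal genes Rps15a, Rpl27, Rps14 and Rpl41 were also among the 8. The most abundant message that fell was mitochondrial, with mt-Co3 at 19184 ± 4992 TPM and 2709 ± 1059.5 TPM, joined by Ndufa4 at 4797 ± 739 TPM and 1099 ± 278 TPM and by Ptgds, the prostaglandin D synthase of meninges and choroid plexus, at 4408 ± 1846 TPM and 254 ± 251 TPM. Ptgds also stood for most of the meningeal marker sum given above, and what share of its fall came with dissected meninges was not tested.

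Some genes set CT2A apart from every other tumor. Adh7 ranged from 1.01 to 10.6 CPM in the 9 other tumors (log2 difference 7.23 ± 0.34 SE, edgeR adjusted p = 2.11e-08). Tmem45a ranged from 0.162 to 5.79 CPM in them and was at 68.6, 122 and 179 CPM in CT2A (log2 difference 6.17 ± 0.72 SE, edgeR adjusted p = 0.000108), and Slc22a29, an organic anion transporter gene, ranged up to 0.849 CPM and was at 17.5, 16.5 and 30.1 CPM (log2 difference 6.55 ± 0.82 SE, edgeR adjusted p = 0.000187). Dynap was at 7.45, 40.2 and 14.6 CPM, Olfr805, an olfactory receptor gene without a count in the other tumors, at 15.4, 22.7 and 14.5 CPM, and the long non-coding RNA Tslrn1 at 6.96, 8.54 and 11.4 CPM, with no count in naïve brain. Pcdha5, a clustered protocadherin, was at 11.1, 8.07 and 8.78 CPM in CT2A and at no more than 2.13 CPM in the other tumors, but overlapped with naïve brain (11.4, 0 and 3.24 CPM). Lower in CT2A than in all others were Gjc3, a connexin of oligodendrocytes (5.07 to 967 CPM in the others against 4.76, 2.02 and 2.45 CPM, log2 difference -4.97 ± 0.74 SE, edgeR adjusted p = 0.000721), Sox6, a factor of precursors (17.4 to 383 CPM against 3.66, 0.310 and 7.88 CPM, log2 difference -4.70 ± 0.69 SE, edgeR adjusted p = 0.000653), Gpr17 and Erbb3 of the same lineage (log2 difference -4.43 ± 0.58 SE, edgeR adjusted p = 0.000258, and log2 difference -4.195 ± 0.59 SE, edgeR adjusted p = 0.000519), and Sned1, Bfsp2, Bglap2, Efs, Tmem108 and Xlr3c. Xlr3c was as low in naïve brain as in CT2A, at 1.02, 0.747 and 0.811 CPM and 0.855, 0.931 and 0.904 CPM. Shares by chromosome were taken over the tested protein-coding genes. Higher in CT2A than in the other tumors were 12.02% of them on chromosome 3 (median log2 difference 0.26) and 10.3% on chromosome 19 (0.29). On chromosome 14, 7.81% were lower (-0.60). Over all tested genes of any type, 4.81% were higher and 2.97% lower. Medians on the remaining autosomes and the X chromosome lay between -0.32 and 0.06.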

How the data were processed

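RNA of dissected tissue was sequenced as whole transcriptome libraries from 50 ng of RNA. Per the labels, reads were aligned with STAR to the GENCODE mouse genome, duplicates were marked with Picard tools, and metrics came from RNA-SeQC. The submitters' processing notes name Salmon, DESeq2 1.18.1 and build mm10 without giving their roles. The deposited files hold estimated counts per Ensembl gene, which the authors left unscaled between samples (totals differ), and TPM values, in which the authors related counts to gene length and library total. Both cover 46679 genes and 15 samples, and 46201 gene IDs were matched to symbols. Coordinates are those of GRCm38 (mm10).

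Estimated counts were rounded to whole numbers, filtered with filterByExpr, normalized by TMM and tested with edgeR 4.0.16 (quasi-likelihood, R 4.3.3). Each of the 5 groups had its own mean in 1 fit over 15 samples. Contrasts were CT2A minus naïve brain and CT2A minus the mean of the other tumors. A call required an adjusted p (Benjamini-Hochberg) under 0.05 together with a change of 1 or more on the log2 scale, and the SE was the log2 fold change divided by the root of the F statistic. For genes without a count in the lower group, a lower bound against 3 counts over the group is given in place of the fold change, and for 1 to 3 counts the ratio of scaled counts with its exact counting interval. Total counts of 3105119 to 8825088 in the 6 samples set the precision of low genes. In simulated counts with the depth of CT2A and naïve brain, the fit called 10% of genes changed by 1.5 on the log2 scale, 42% at 2, 78% at 3 and 80% at 4 (50 genes each, 16924 genes in the fit). It called 6 of 17281 unchanged genes, where genes that the filter removed count as not called. The changed genes were drawn above a minimum mean CPM and were far fewer than the genes called in the data. These rates therefore do not carry over to low genes or to so large a share of changes. P-values rest on the spread between mice within the 5 groups of the fit, and not on that between tumors of separate origin. Ribosomal, granzyme, Klra and MHC genes share reads with close copies, and their split is uncertain. Whether reads were counted by strand is not given in the sources used here.

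The 60 gene groups (1004 genes) and the tests were chosen with earlier results of these data known. Named were the lead genes of each group whatever their result, up to 6 further called members with the largest absolute log2 fold change, and members not called where they account for the group. Several genes that this rule names are not reported here. Beyond the groups, the 12 largest changes in each direction were named (higher group at 3 or more on average in log2 CPM, no overlap, at least 3 counts in the lower group, no pseudogenes or unnamed models). The 8 most abundant called genes in each direction by TPM, the 10 largest differences from the other tumors in each direction, and the 8 highest genes with under 3 naïve counts completed the set. Alternatives were DESeq2 1.42.0, RLE factors, library size alone, libraries scaled as in the TPM, other filters, limma 3.58.1 on log2(TPM + 1), the compared groups alone, the replicate number as a block, and each replicate left out. The scaling as in the TPM and the fit of CT2A replicates 2 and 3 with naïve brain alone were added after the data were seen. Promoter sequences were RefSeq's for GRCm38.p6.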

Additional observations from a re-analysis of the deposited data

Results flagged for a closer look

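Of the genes in the groups, 3 were called higher in CT2A than in naïve brain and at the same time called lower than in the other tumors by the direct contrast. Col11a1, a minor fibrillar collagen, averaged 5.08 CPM in naïve brain, 23.1 CPM in CT2A, 181 CPM in GL261, 7.77 CPM in 005 and 341 CPM in Mut3. Its log2 difference from the mean of the other tumors was -1.76. Gpnmb, a glycoprotein of lipid-laden macrophages, averaged 7.53 CPM in naïve brain, 27.6 CPM in CT2A, 289 CPM in GL261, 39.9 CPM in 005 and 259 CPM in Mut3, with a difference of -2.38. H2-DMb1, which helps load peptides on MHC class II, averaged 1.67 CPM in naïve brain, 87.0 CPM in GL261, 44.9 CPM in 005 and 13.7 CPM in Mut3, and was at 7.94, 9.94 and 12.1 CPM in the CT2A samples, with a difference of -1.91. GL261 and Mut3 were highest in the first and second gene, and GL261 and 005 in the third.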

How the results depend on the processing

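The counts of genes that rose (3319), fell (3539), or were higher (841) or lower (519) than in the other tumors moved with the following choices. A minimum log2 fold change of 2 gave 1972, 2288, 384 and 266. At least 10 counts in every sample, which removes genes near 0 in 1 group, gave 1732, 2224 and 444 for the first 3. Limma on log2(TPM + 1) gave 1051 for those that rose, 281 and 297. Libraries scaled as in the TPM gave 1429 that rose, 6873 that fell and 481 higher. DESeq2 gave 896 lower than in the other tumors. Leaving out 1 replicate gave 2582 to 3443 that rose and 1876 to 4059 that fell, the latter with 1876 without CT2A replicate 2, 2121 without CT2A replicate 3 and 2282 without naïve replicate 2. It gave 441 to 965 higher and 137 to 593 lower, with 441 and 159 without CT2A replicate 3, 450 and 137 without CT2A replicate 2, and the top of each range without 005 replicate 3. Beyond the fewer genes or samples that enter, the cause was not tested. Same-numbered samples of CT2A and naïve brain did not deviate together over all genes (r between -0.052 and 0.077). With 3 samples in each group this cannot exclude a shared batch, and what the numbers mark is not given in the sources used here. With the replicate number as a block, 3155 genes rose, 3218 fell, 724 were higher and 393 lower. No value of the 470 named genes that was called turned its direction under a setting that still tested the gene and estimated its change anew. Calls were lost for 138 of these genes with limma on log2(TPM + 1) and for 76 with libraries scaled as in the TPM. They were lost for 100 without CT2A replicate 2, 91 without CT2A replicate 3 and 19 without CT2A replicate 1, for 56, 62 and 49 without naïve replicate 1, 2 and 3, and for 25 with the replicate block. The depth limits genes under the floor of 3 counts.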

Other observations

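Xist, the non-coding RNA of the inactive X chromosome, was noticed after its values were seen. It was at 36.1, 145 and 19.7 CPM in naïve brain and at 319, 235 and 392 CPM in CT2A, against 2.80 to 47.4 CPM in the 9 other tumors. Of the Y-linked genes examined with it, Kdm5d was at 1.02, 0.996 and 2.70 CPM in naïve brain and at 4.64, 1.71 and 1.94 CPM in CT2A, Uty at 0.612, 0.498 and 1.08 CPM and at 3.05, 1.09 and 2.33 CPM, and Eif2s3y at 1.84, 0.249 and 2.97 CPM and at 1.71, 0 and 0.388 CPM. None of these was called, and Ddx3y was near 0 and not tested. The sex of the mice and of the cells is not given in the sources used here.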
